A study of Mus musculus with 16 samples.

Results

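Gapdh and 4 of its processed copies, Gm13394, Gm6316, Gm8174 and Gm5787, were followed through bulk RNA sequencing of mouse hippocampus. They are 5 of the 49315 genes in the count table, taken by gene name. The genes were selected on their counts in knockout and wild-type libraries, which differ in opposite directions at Gapdh and a copy. Differences between the genotypes are therefore given for these genes as a description, without a test. The samples were 16 hippocampi in 4 groups of 4: wild type and Kcna1 knockout (KO), each on a standard or a ketogenic diet. The product of Kcna1 is a subunit of voltage-gated potassium channels, mice without it have seizures, and a ketogenic diet is a high-fat, low-carbohydrate diet used against epilepsy. The labels give no strain, allele, sex, age or length of diet, and do not say whether littermates were used, so p-values measure the spread between these samples.

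Gapdh encodes glyceraldehyde-3-phosphate dehydrogenase, the glycolytic enzyme that oxidises glyceraldehyde-3-phosphate while reducing NAD+. The gene is active in nearly all cells and is widely used as a reference in quantitative PCR. Messenger RNAs of such genes have repeatedly been copied back into the genome as processed pseudogenes, which lack introns and usually a promoter. A short read from the Gapdh mRNA can therefore match several places in the genome, and a counting program that discards or splits such reads decides how many reach each gene. The counting method used for these libraries is not given in the sources used here.

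Among the 4 copies, Gm13394 is close to an exact copy and the others are not. Gapdh lies on chromosome 6 at chr6:125161715-125166467, minus strand (GRCm38, the Ensembl-based GENCODE M21 annotation, the same assembly as mm10). Gm13394 lies on chromosome 2 at chr2:28933610-28934609, minus strand, in an intron of Cfap77. Its 1000 annotated bases aligned to the Gapdh mRNA of 1272 bases at 99.9% identity, with 1 substitution, A438C, and 0 gap columns. Positions are counted from 1 at the 5′ end of the Gapdh mRNA, and the first letter is the Gapdh base. The position is base 346 of the coding sequence, the first base of codon 116 in exon 4 of 7, and the exchange keeps the encoded amino acid. In the genome it is chr6:125163016 in Gapdh and chr2:28934264 in Gm13394.

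The stretch around this position is printed because it holds the only difference between the pair. It covers mRNA positions 388 to 488 in coding sequence, is written in the direction of the mRNA and comes from the GENCODE M21 transcripts. Capitals mark position 438 in Gapdh and, in the other sequences, each base that differs from Gapdh:
Gapdh: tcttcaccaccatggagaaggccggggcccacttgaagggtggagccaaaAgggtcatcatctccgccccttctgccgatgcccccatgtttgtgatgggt
Gm13394: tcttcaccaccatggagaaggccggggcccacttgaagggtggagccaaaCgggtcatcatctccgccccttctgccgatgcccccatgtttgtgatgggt
Gm6316: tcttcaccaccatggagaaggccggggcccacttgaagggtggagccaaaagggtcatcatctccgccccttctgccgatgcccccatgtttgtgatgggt
Gm8174: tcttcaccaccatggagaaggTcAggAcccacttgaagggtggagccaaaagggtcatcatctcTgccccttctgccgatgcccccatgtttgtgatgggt
Gm5787: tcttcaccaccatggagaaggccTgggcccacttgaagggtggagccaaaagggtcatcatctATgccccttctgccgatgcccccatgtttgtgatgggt
Gm6316 had 0 substitutions in this stretch, Gm8174 had 4 and Gm5787 had 3, and none of these is at position 438. Over its full length Gm6316 (chr12:69920472-69921491) was 95.7% identical to the Gapdh mRNA, with 26 substitutions and 18 gap columns. Gm8174 (chr15:10560524-10561524) was 92.5% identical, with 43 substitutions and 33 gap columns. Gm5787 (chr8:36372596-36373633) was 92.2% identical, with 41 substitutions and 40 gap columns. By sequence, the description as near-identical copies held for Gm13394 and less well for the remaining 3.

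All windows of read-like length were then searched on both strands in every annotated transcript of the other genes. Gm13394 has 901 windows of 100 bases, and the 100 that span position 438 (11.1%) were the ones found in no other gene. With windows of 50, 75 and 150 bases the shares were 5.26%, 8.1% and 17.6%, and in each case these were again exactly the windows over the position. The Gapdh mRNA had 167 of 1173 windows of 100 bases in no other gene, and none of its 100 windows over position 438 was among them. At each of the 4 lengths, a window of the Gapdh mRNA over the position thus matched at least 1 other annotated gene without a mismatch, whereas one with the Gm13394 base matched that copy alone. The annotation of the copies covers little beyond the coding part, the genome itself was not searched, and the read length is not given in the sources used here.

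The libraries held 13440230 to 22309504 counts, of which at least 99.8% fell in the 17469 genes tested. Kcna1 reached 107.3 to 130.1 CPM (counts per 1000000 counts, here with TMM-scaled library sizes) in the 8 wild-type libraries and 43.4 to 47.2 CPM in 7 of the 8 libraries labelled knockout. The eighth, the library labelled knockout KC888LL on the standard diet, was at 82.0 CPM, between the genotypes. Its Kcna1 level did not match that of the other libraries with its label, so results that rest on it are given with and without it. All 9 hippocampal markers examined were above 1 CPM in every library, with a summed level of 1271.4 to 1570.0 CPM. Summed choroid plexus markers (Ttr, Folr1, Kl, Kcnj13) ranged from 28.6 to 1029.1 CPM with both extremes in wild-type libraries. Summed astrocyte markers spanned 1123.5 to 1323.2 CPM over wild-type libraries and 1096.7 to 3733.3 CPM over libraries labelled knockout.

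Gm13394 was counted well in every wild-type library and almost not at all in 7 of the 8 libraries labelled knockout. The wild-type libraries on the standard diet had 1731, 1735, 1757 and 1899 counts. On the ketogenic diet the wild type had 2138, 2154, 2055 and 2741 counts. The standard-diet libraries labelled knockout had 38, 16 and 20 counts, and KC888LL had 1056. The ketogenic-diet knockouts had 13, 18, 6 and 10 counts. Neither diet brought a wild-type library near a knockout library, and KC888LL stood alone between them.

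As levels, Gm13394 was at 118.0 ± 6.88 CPM in the wild type and 15.3 ± 27.9 CPM in the group labelled knockout on the standard diet (SD, n = 4 each). Without KC888LL, which had 57.1 CPM, the latter was 1.37 ± 0.497 CPM (SD, n = 3). On the ketogenic diet the wild-type mean was 117.7 ± 7.02 CPM, against 0.784 ± 0.435 CPM for knockouts (SD, n = 4 each). The wild-type mean was 7.70 times the knockout mean on the standard diet with KC888LL, 86.1 times without it, and 150.2 times on the ketogenic diet. The groups did not overlap on either diet. The fitted log2 fold change of knockout over wild type came to −2.93 ± 0.87 (SE) for the standard diet, −6.40 ± 0.18 without KC888LL, and −7.29 ± 1.30 for the ketogenic diet. Outside KC888LL, the values of Gm13394 in the libraries labelled knockout rest on 6 to 38 counts a library. In tissue RNA, fewer cells of a type and less RNA per cell cannot be told apart, and here neither can be told apart from a different placement of the same reads.

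Gapdh itself moved the other way. Its counts in the wild type were 13547, 13198, 13615 and 13644 on the standard diet and 16873, 16657, 14804 and 19614 on the ketogenic diet. The standard-diet libraries labelled knockout had 21880, 17642 and 19031 counts, with 17868 in KC888LL, and the ketogenic-diet knockouts had 17890, 15391, 21455 and 19134. These raw counts follow library size as well as genotype, so levels are compared as CPM.

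On that scale Gapdh was at 894.5 ± 39.5 CPM in the wild type and 1075.6 ± 103.4 CPM in the group labelled knockout on the standard diet (SD, n = 4 each), or 1111.9 ± 90.1 CPM without KC888LL (n = 3). On the ketogenic diet wild-type libraries averaged 880.4 ± 19.45 CPM and knockouts 1164.2 ± 33.3 CPM (SD, n = 4 each). All 8 libraries labelled knockout were above all 8 wild-type libraries, the closest being KC888LL at 966.7 CPM and the highest wild-type library at 946.9 CPM. The ratio of means was 1.20 on the standard diet, 1.24 without KC888LL, and 1.32 on the ketogenic diet. The fitted log2 fold changes were 0.27 ± 0.06, 0.31 ± 0.06 and 0.40 ± 0.06 (SE) in the same order. By mean CPM, Gapdh ranked 79 among the 17469 tested genes.

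**Figure D1:**
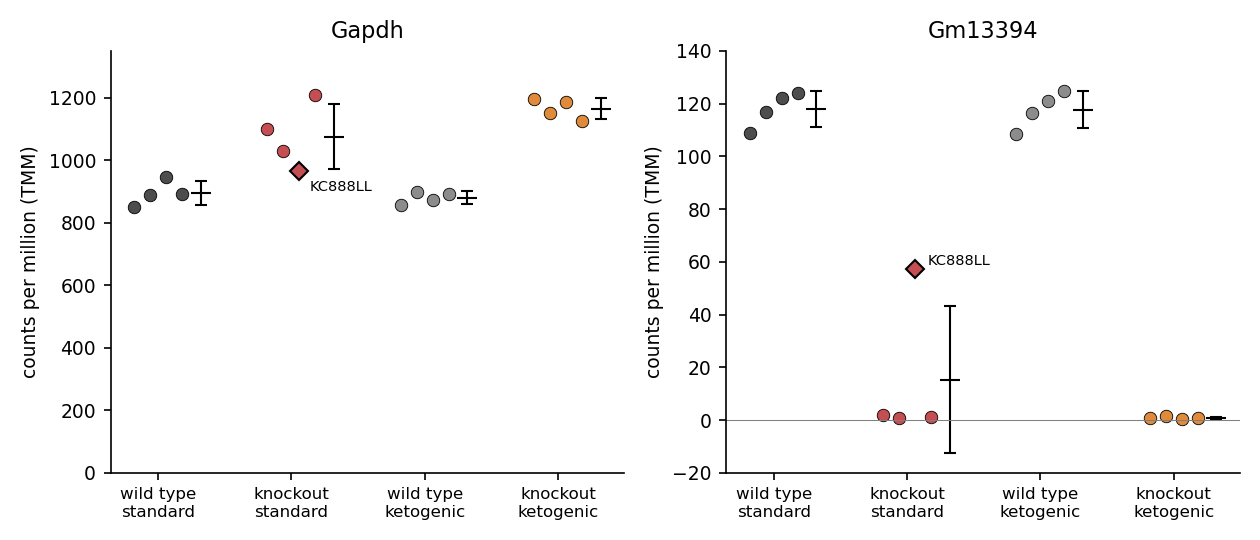
Levels of Gapdh (left) and Gm13394 (right) in CPM (vertical axes) in the 16 libraries by group; points are libraries, bars are the group mean ± SD (n = 4), and the diamond is the library labelled knockout KC888LL. Gapdh was higher in all 8 libraries labelled knockout. Gm13394 was at 108.6 to 124.8 CPM in the wild type and at most 1.91 CPM in the libraries labelled knockout other than KC888LL.

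The other 3 copies had close to no counts, so nothing can be said of their direction. Gm6316 had 16 counts in all, in 11 libraries and at most 3 in any of them. Gm5787 had 6 counts in 5 libraries, at most 2 in any. Gm8174 had 0 counts in every library, which allows a level of up to 0.1345 to 0.223 CPM (3 counts a library, here over total counts without TMM scaling). Only Gapdh and Gm13394, 2 of the 5, passed the filter on low counts and could be fitted. In each wild-type library at least 99.8% of the copies' counts were at Gm13394.

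The share of the family's counts at the copies is free of library size and scaling, as both parts come from 1 library. It was 11.65% ± 0.398 (SD, n = 4) in the wild type on the standard diet and 11.8% ± 0.518 (n = 4) on the ketogenic diet. Over the 8 wild-type libraries it ran from 11.25% (2139 of 19012 counts, exact 95% binomial interval 10.8 to 11.7%) to 12.3% (2743 of 22357 counts, 11.8 to 12.7%). The wild-type shares thus lay in a band about as wide as their counting intervals, which cover counting error only.

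In the libraries labelled knockout other than KC888LL the share lay between 0.0419% (9 of 21464 counts, interval 0.0192 to 0.0796%) and 0.178% (39 of 21919 counts, interval 0.127 to 0.243%). KC888LL had 5.59% (1058 of 18926 counts, interval 5.27 to 5.93%). Its interval met neither that of any wild-type library nor that of any other library labelled knockout. The same library was intermediate in Kcna1. The libraries fell into separate clusters by genotype in both measures, so no correlation between share and Kcna1 is given.

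**Figure D2:**
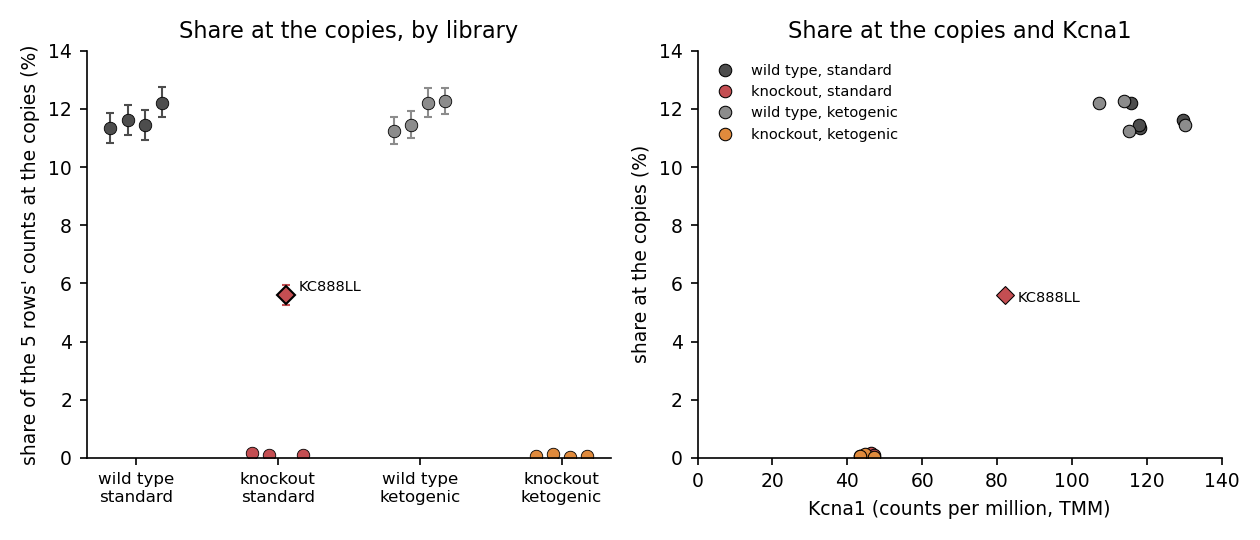
Share of the counts of Gapdh and its 4 copies that lay at the copies, in percent (vertical axes), by group with exact 95% binomial intervals (left) and against Kcna1 in CPM (right); points are the 16 libraries and the diamond is KC888LL. The wild type sat at 11.25 to 12.3%, the knockouts at or below 0.178%, and KC888LL at 5.59% with 82.0 CPM of Kcna1.

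Adding the 5 genes within each library narrowed the difference between the genotypes without closing it on the ketogenic diet. On the standard diet the sum was 1012.5 ± 44.9 CPM in the wild type and 1091.0 ± 86.2 CPM in the group labelled knockout (SD, n = 4 each), a ratio of 1.08, or 1.10 without KC888LL. The ranges overlapped, 959.7 to 1069.1 CPM against 1024.0 to 1208.5 CPM, and still overlapped without KC888LL. On the ketogenic diet the sums were 998.2 ± 24.4 and 1165.1 ± 33.25 CPM, a ratio of 1.17, and the ranges did not overlap.

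In absolute terms, Gapdh was 217.4 CPM higher in the knockouts without KC888LL than in the wild type on the standard diet, while Gm13394 was 116.6 CPM lower. With KC888LL the mean differences were 181.1 CPM higher at Gapdh and −102.6 CPM at Gm13394. Without that library the loss at the copy equalled 53.6% of the gain at Gapdh. On the ketogenic diet the gain was 283.9 CPM and the loss 116.9 CPM, or 41.2% of the gain. Whether the reads gained at Gapdh are those lost at Gm13394 was not tested, since the counts do not trace reads.

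**Figure D3:**
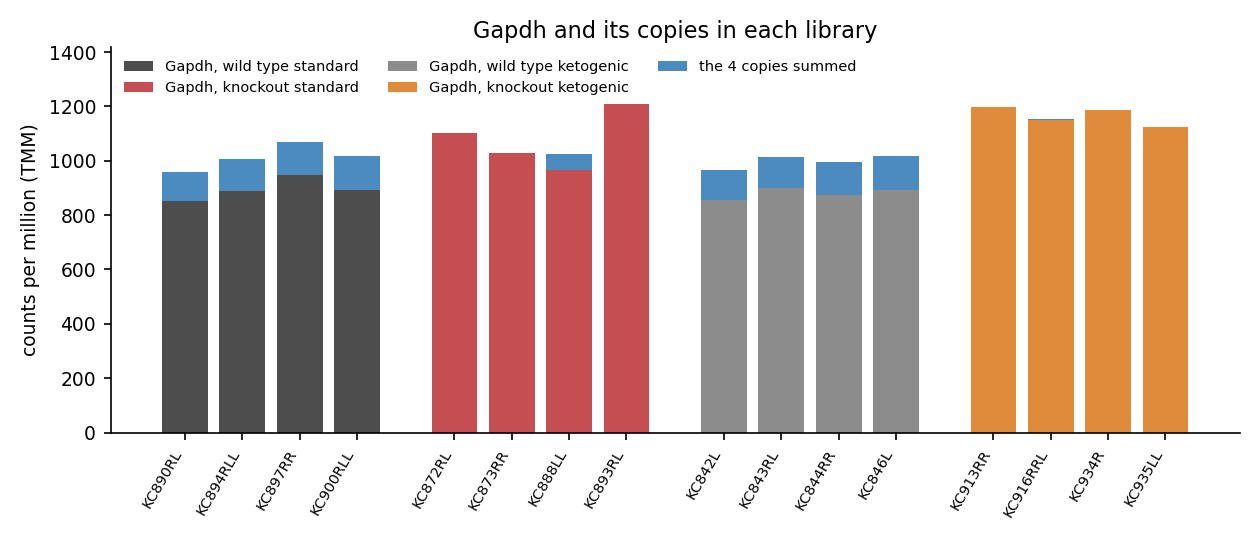
Level in CPM (vertical axis, from 0) of Gapdh and, stacked above it in blue, of its 4 copies summed, in each of the 16 libraries. The blue part is visible in the 8 wild-type libraries and in KC888LL, and the full bars span 959.7 to 1069.1 CPM in the wild type and 1024.0 to 1208.5 CPM in the libraries labelled knockout.

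The difference between diets within a genotype was not used to choose these genes, so it was tested, with edgeR's quasi-likelihood test adjusted by Benjamini-Hochberg over all 17469 genes. Neither Gapdh nor Gm13394 passed an adjusted p of 0.05 in the knockout or in the wild type. The genotype by diet interaction is the difference of the genotype contrasts on which the genes were chosen, so for these genes it is given as a description. The same test called 1.16% of all genes for diet in the knockout, 0.0114% in the wild type and 0% for the interaction. DESeq2 did not call Gapdh either, and it gave no adjusted p for Gm13394. At an unadjusted p of 0.05, edgeR listed Gm13394 for diet in the knockout and Gapdh in neither genotype. That looser limit was met by 16.9% of all genes in the knockout and 5.46% in the wild type.

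For Gapdh the log2 fold change, ketogenic minus standard, was 0.11 ± 0.06 (SE, adjusted p = 0.356, edgeR) in the libraries labelled knockout and 0.07 ± 0.06 (adjusted p = 0.527, edgeR) without KC888LL. In the wild type it was −0.02 ± 0.06 (adjusted p = 0.998, edgeR). The interaction, the diet difference in the knockout minus that in the wild type, was 0.14 ± 0.09 (SE). The Gapdh ranges of the diet groups overlapped within each genotype.

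For Gm13394 the diet difference in the libraries labelled knockout was −4.37 ± 1.44 (adjusted p = 0.157, edgeR), and it rested on KC888LL, without which it was −0.90 ± 0.32 (adjusted p = 0.108, edgeR). The latter compares 16 to 38 counts a library with 6 to 18. In the wild type the difference was −0.00 ± 0.77 (adjusted p = 1.000, edgeR), with an SE widened by KC888LL: without that library it was 0.10. The interaction came to −4.36 ± 1.69 (SE), or −0.90 ± 0.34 without KC888LL, and it too rests on knockout libraries with few counts.

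Gm13394 held more counts than any other gene that resembles Gapdh. The count table holds 140 other Gapdh-like rows, 139 of them found by aligning annotated transcripts to the Gapdh mRNA at 90% identity or more over 50% or more of its length, and 66 of them at 95% or more. Of the 140 rows, 25 had 0 counts in all libraries and 8 passed the filter on low counts. Together they held 38.0 to 58.8 CPM a library, and the 66 closest held 6.12 to 8.08 CPM in the wild type and 5.62 to 7.96 CPM in the libraries labelled knockout. The range of the closest rows was thus much the same in both genotypes, unlike that of Gm13394.

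Close identity to Gapdh did not go with high counts. Gm10359 and Gm12671, which match the Gapdh mRNA without a difference, had 33 counts together over 16 libraries. Apart from Gm13394, 6 copies differ from Gapdh by 1 substitution and had 18 to 70 counts each, against 17387 at Gm13394. Among the 69 genes at 95% identity or more, Gm13394 was the only one with C at position 438, and among all 145 aligned genes the only other was Gm5732. None of the 8 rows that passed the filter was called between knockout and wild type, where edgeR called 0.00572% of all genes on the standard diet and 0.0172% on the ketogenic diet. These 8 include Gapdhs, the sperm-type isoenzyme, at 4.10 to 7.465 CPM, and Peli2, a ubiquitin ligase gene of its own. Cfap77, which hosts Gm13394 in an intron, was at most 0.9425 CPM in any library.

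**Figure D4:**
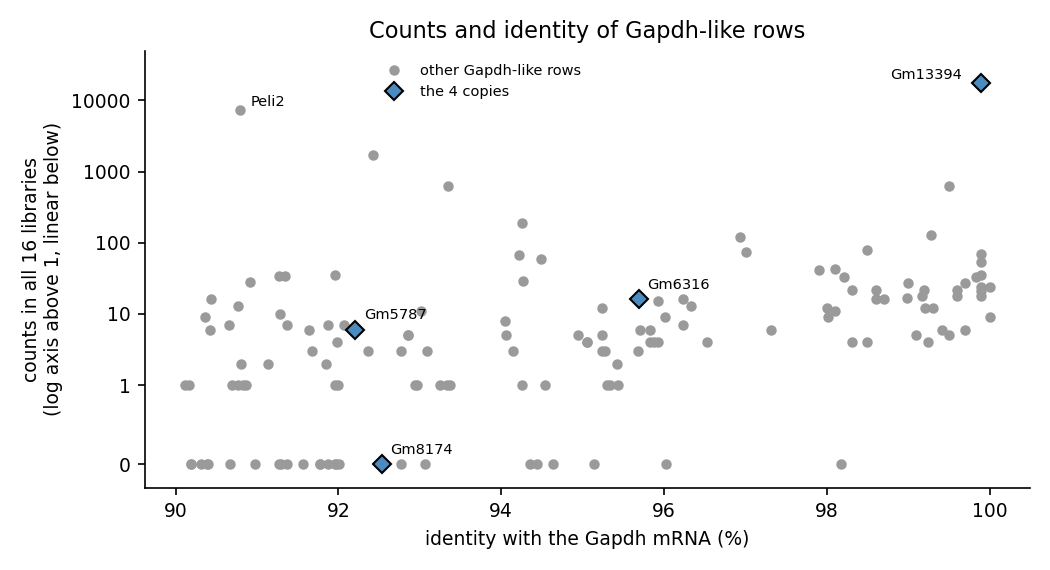
Counts summed over the 16 libraries (vertical axis, logarithmic above 1 and linear below) against identity with the Gapdh mRNA in percent (horizontal axis) for the aligned Gapdh-like genes; diamonds are the 4 copies. Gm13394 had 17387 counts, while the copies with 1 substitution beside it had 18 to 70.

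None of the glycolysis genes examined was called between the genotypes, where few of all genes were called. The list, assembled from textbook members of the pathway, held 17 genes from hexokinase to lactate dehydrogenase, Gapdhs among them, and all were tested. Between knockout and wild type edgeR called 0 of 17 on either diet, beside 0.00572% of all genes on the standard and 0.0172% on the ketogenic diet. DESeq2 also called 0 of 17 on either diet, beside 0.982% and 0.169% of the genes it gave an adjusted p. With so few calls over all genes, 0 of 17 does not set the list apart. At an unadjusted p under 0.05 edgeR listed 2 and 3 of 17, beside 14.3% and 9.22% of all genes. The median log2 fold change was −0.03 on the standard diet and 0.10 on the ketogenic diet, beside 0.00 over all genes tested on each. In the knockout, 4 of 17 were higher on the standard diet and 13 of 17 on the ketogenic diet, beside 51.1% and 51% of all genes. The 17 log2 fold changes ran from −0.29 to 0.45 and from −0.17 to 0.41. Whether Gapdh differed from the list was not tested. Without KC888LL the number called on the standard diet was still 0 of 17, although edgeR then called 5.73% of all genes.

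Fold changes are given for Pgk1 and Tpi1, the enzymes next to Gapdh in the pathway, and for Eno2, Aldoa and Pkm. Pgk1, which makes ATP from the product of Gapdh, had log2 fold changes of −0.03 ± 0.08 and 0.15 ± 0.08 (SE), knockout minus wild type, on the standard and ketogenic diets. Tpi1, which supplies the substrate of Gapdh and lies on chromosome 6 as well, had −0.04 ± 0.05 and 0.03 ± 0.05. Eno2, the neuronal enolase, had −0.10 ± 0.05 and −0.08 ± 0.05. None of these passed the test. Aldoa, the main aldolase, had −0.03 ± 0.09 and 0.23 ± 0.09, and Pkm, pyruvate kinase, had −0.01 ± 0.05 and 0.11 ± 0.05, and neither of these passed either.

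Diet in the knockout called 1 of 17 glycolysis genes, Pfkl, the liver-type phosphofructokinase, against 1.16% of all genes. Pfkl was at 240.5 to 302.3 CPM on the standard diet, KC888LL being the highest, and at 341.1 to 446.1 CPM on the ketogenic diet, so the groups did not overlap. Its log2 fold change was 0.45 ± 0.09 (SE, adjusted p = 0.0179, edgeR), and 0.51 without KC888LL (adjusted p = 0.00453, edgeR). It was no longer called without KC872RL (0.39, adjusted p = 0.0753, edgeR) or KC873RR (0.45, adjusted p = 0.0592, edgeR). Without KC888LL, edgeR called 6.18% of all genes and 4 of 17 list genes, all higher on the ketogenic diet: Pfkl, Pfkp, Eno1 and Ldha. DESeq2 called 5 of 17 with all libraries, against 4.26% of the genes it gave an adjusted p. Marker levels of other cell types differed between the same diet groups of the libraries labelled knockout. The 6 oligodendrocyte markers, each above 1 CPM in every library, summed to 4849.2 to 5314.6 CPM on the standard diet and 1870.3 to 3494.7 CPM on the ketogenic diet. The 5 blood markers, of which 2 were above 1 CPM in every library, summed to 65.8 to 113.3 CPM and 17.4 to 32.5 CPM. The 6 microglia markers, each above 1 CPM in every library, summed to 188.2 to 396.5 CPM and 166.8 to 184.1 CPM. None of these 3 sums overlapped, and their part in the difference was not tested. Ldha, the lactate dehydrogenase subunit, had 0.54 ± 0.16 with all libraries (adjusted p = 0.114, edgeR) and 0.63 without KC888LL (adjusted p = 0.0473, edgeR). Gapdh did not pass in this comparison, and whether it differed from these enzymes was not tested. Diet in the wild type and the interaction called 0 of 17, with 0 and 6 genes at an unadjusted p under 0.05 by edgeR, beside 5.46% and 7.48% of all genes, and 0 by DESeq2 for both, which called 0.0654% and 0.0121% of the genes it gave an adjusted p there.

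Gapdh lies 1.47 Mb from Kcna1 on the same chromosome, so the genes around it were counted. Of 59 tested genes within 2 Mb of Gapdh, the members left out, 1 was called on each diet, and it was Kcna1 itself, beside 0.00572% and 0.0172% of all genes. DESeq2 called 6 of 55 neighbours with an adjusted p on the standard diet, beside 0.982% of all such genes. On the ketogenic diet it called 4 of 65, beside 0.169%. Kcna1 was lower by a log2 fold change of −1.13 ± 0.15 on the standard diet (adjusted p = 0.0339, edgeR), −1.39 without KC888LL (adjusted p = 4.07e-10, edgeR), and −1.38 ± 0.15 on the ketogenic diet (adjusted p = 0.0032, edgeR). Leaving out any of the 15 other libraries ended the standard-diet call, at adjusted p = 0.0501 to 0.220 (edgeR), but not the ketogenic-diet call. Without KC888LL, 9 of 61 neighbours (14.8%, against 5.73% of all genes) were called on the standard diet, 6 higher and 3 lower, and 1 of 61 on the ketogenic diet, against 0.0282%. Of the 9, the 5 of smallest p were Kcna1, Pianp, Ncapd2, Vwf and Ccnd2, and among the others were C1s1, Lag3 and Ptpn6, immune genes that were higher and were named after their values were seen. With KC888LL included, summed microglia markers had a median of 281.4 CPM in the group labelled knockout on the standard diet, against 197.1 CPM in the wild type. Their part in the count without KC888LL was not tested. Ncapd2, a condensin subunit gene beside Gapdh, was at 15.1 to 17.2 CPM in the wild type on the standard diet and 24.8 to 30.5 CPM in the knockouts without KC888LL, which had 19.3 CPM. Its ranges on the ketogenic diet lay closer, 15.7 to 19.0 CPM and 20.2 to 29.0 CPM. Around Gm13394 on chromosome 2, 0 of 72 tested genes were called on either diet, and without KC888LL 6 of 72 (8.33%) on the standard diet. Whether passenger sequence around the targeted gene bears on Gapdh was not tested.

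Genes most like Gapdh over the 16 libraries were found by the root mean square difference of centred log2 CPM, with the members left out. They were Prr13 (0.10), 1700052K11Rik (0.10) and Ypel5 (0.10), beside a standard deviation of Gapdh itself of 0.19 on that scale. Prr13, for example, had a median of 27.85 CPM in the wild type and 33.65 CPM in the knockouts without KC888LL, with ranges that overlapped over the pooled diets. For Gm13394 no gene came close: the nearest were Egr2 (2.46), 1700016P03Rik (2.61) and Npas4 (2.67), beside a standard deviation of 3.47 for Gm13394. Egr2 and Npas4 are transcription factors induced by neuronal activity, and were picked for a likeness to a gene that itself separates the genotypes, so their own separation is a description. Within each diet neither overlapped between the genotypes once KC888LL was left out. Egr2 on the ketogenic diet was at 3.01 to 3.95 CPM in wild-type libraries and 0.221 to 1.94 CPM in knockouts. Npas4 was at 18.1 to 23.2 CPM and 3.54 to 8.82 CPM. On the standard diet KC888LL, with 1.68 CPM of Egr2 and 10.2 CPM of Npas4, fell in the wild-type ranges of 1.21 to 3.77 CPM and 7.002 to 10.4 CPM.

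The spread of Gapdh over all libraries includes the genotype difference on which the genes were chosen, and its place among reference genes is a description. Its coefficient of variation was 13.45% over the 16 libraries, while it was 3.36% within the 8 wild-type libraries and 7.63% within the 8 libraries labelled knockout. Of 16 other genes used as references, 13 varied less, from Sdha, a subunit of succinate dehydrogenase, at 3.205%, and 3 varied more, up to B2m, the light chain of MHC class I, at 31.6%. The median of the 16 was 8.70%, between Pgk1 and Rplp0. Within a genotype the order was different: 4 of the 16 varied less than Gapdh in the wild type and 6 of the 16 in the libraries labelled knockout. With the copies added to Gapdh the coefficient over all libraries was 7.845%.

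**Figure D5:**
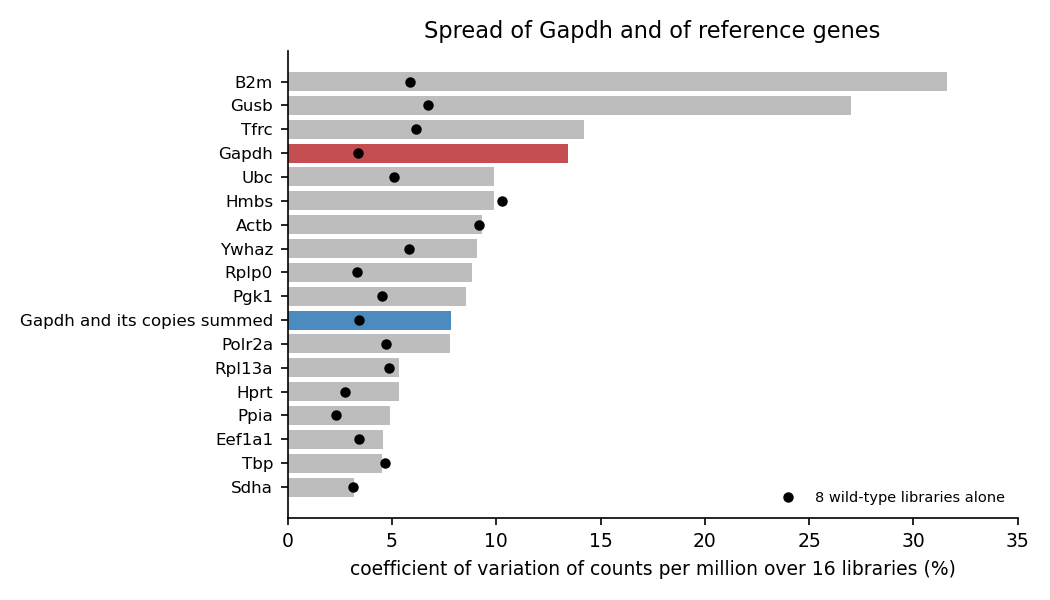
Coefficient of variation of CPM over the 16 libraries in percent (horizontal axis, bars from 0) for Gapdh (red), Gapdh with its copies (blue) and 16 reference genes (grey); black points are the values within the 8 wild-type libraries. Gapdh was at 13.45% over all libraries and at 3.36% within the wild type, and adding the copies gave 7.845%.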

How the data were processed

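The authors deposited 1 table of raw counts per gene, 16 libraries, none of them normalised; the build mm10 and DESeq2 are named per the submitters' processing notes, while the aligner, counter, annotation, strand handling and read length are not given in the sources used here. Column names give an animal tag, genotype and diet but no replicate number, so libraries were assigned to groups and are named by tag. The members and lists were chosen with earlier results of these data known. Counts were filtered (filterByExpr), scaled by TMM and fitted with edgeR 4.0.16 (quasi-likelihood, robust, 1 coefficient per group, 12 residual degrees of freedom) in R 4.3.3; calls needed a Benjamini-Hochberg adjusted p under 0.05 over all genes tested. The fit was tested on simulated data. Members got no test between genotypes. Transcripts of GENCODE M21 were aligned to the Gapdh mRNA with blastn 2.17.0; 48970 gene IDs matched that annotation. Named besides the members were Kcna1, glycolysis genes called in any contrast plus Tpi1, Eno2, Pgk1, Aldoa, Pkm and Ldha, the 3 genes most like each fitted member, up to 5 called neighbours a diet by smallest p, and the reference genes of lowest, median and highest variation; Gm5732, Gm10359, Gm12671, Gapdhs, Peli2 and Cfap77 were named after their values were seen. Alternatives were DESeq2 1.42.0 size factors, upper-quartile factors, no filter, robust estimation off, DESeq2 itself, and each library left out. Intervals and floors cover counting error only.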

Additional observations from a re-analysis of the deposited data

Results flagged for a closer look

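A library was singled out where, in a group of 4, its gap to the nearest other library took up most of the group's range. Of 24 groups of values examined, 5 met this, and chance flags about 1 in 20 groups. Among the standard-diet libraries labelled knockout, KC888LL stood apart in 3 measures: Gm13394 at 57.1 CPM, Kcna1 at 82.0 CPM and the share of the family at the copies at 5.59%. In the wild type on the standard diet, KC894RLL had 129.7 CPM of Kcna1. In the ketogenic-diet knockouts, KC913RR had 38.0 CPM over the other Gapdh-like rows. No cause was tested for any of these.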

How the results depend on the processing

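Of 501 values recomputed under alternatives for 29 results, 459 kept their direction and their side of the threshold or stayed near the first value. No paired analysis was possible because the columns carry no replicate numbers, so the planned replicate block was not run. In the wild type the diet difference was near 0 and changed sign: for Gm13394 it was 0.0062 without a filter on low counts and 0.0053 with upper-quartile factors, and ranged from −0.0404 to 0.0357 with a library left out; for Gapdh that range was −0.0461 to 0.0038. Gm13394, knockout minus wild type on the standard diet, ranged from −6.40 (without KC888LL) to −2.54. In the knockout, glycolysis genes called for diet were 5 by DESeq2 (4.26% of genes with an adjusted p), and 0 to 4 with a library left out, 0 without KC872RL or KC873RR and 2 without KC916RRL or KC935LL. Genes called within 2 Mb of Gapdh on the standard diet were 6 of 55 by DESeq2 (0.982% of genes with an adjusted p). Without a filter they were 3 of 97 (0.0543%). Leaving out a library gave 0 to 9, and 0 for each library other than KC888LL, so even Kcna1 missed the threshold there. Within 1 Mb, a window that leaves out Kcna1, edgeR called 0 of 47 with all libraries. DESeq2 called 5.63% of 71 there, against 0.468% of all genes it fitted. Without KC888LL edgeR called 12.5% of 48 there, against 5.73% of all genes. On the ketogenic diet genes called within 2 Mb were 4 of 65 by DESeq2 (0.169%), 2 of 97 without a filter (0.0332%) and 1 to 2 with a library left out. Within 1 Mb edgeR called 0 of 47 on that diet, and 0 of 48 without KC888LL. DESeq2 called 2.82% of 71 there, against 0.0935% of all genes it fitted. With the other Gapdh-like rows added, the share outside Gapdh was 15.6% and 16.1% in the wild type and 6.20% and 3.985% in the libraries labelled knockout (standard, ketogenic). The share ranged from 0.126% to 1.96% in the group labelled knockout on the standard diet with a library left out. At 95% identity the other Gapdh-like rows numbered 66 in place of 140. Adjusted p-values over the alternatives were 0.160 to 0.578 for Gapdh and 0.0822 to 0.274 for Gm13394 for diet in the knockout. Causes were not tested. Depth limits Gm6316, Gm8174 and Gm5787, at 3 counts or fewer a library.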
